A study of Saccharomyces cerevisiae with 18 samples.

Results

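The nuclear pore complex is the large ring that crosses the nuclear envelope, and 32 budding yeast genes for its scaffold, membrane and FG proteins are described here, out of 7036 features in the count files. They were listed by systematic name. No measured value enters that rule, but the list was drawn up with earlier results of these data known. It holds the Y complex, the inner ring, the membrane ring, the central channel and the cytoplasmic side. POM33, PER33, SRC1 (also called HEH1) and HEH2 are also in it. Genes of the nuclear basket were left out of the set and serve as a comparison. All 32 were found in every file and all 32 had enough reads to be tested.

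The libraries were made from poly(A) RNA of Saccharomyces cerevisiae in the S288C background, 6 for each of 3 strains, harvested from asynchronous growth at 25 °C in YP medium that held 2% glucose plus adenine. Every strain, the control included, expressed Nup60 fused to GFP. The control, WT, kept lysine at residue 467 of the basket protein Nup60. In K467N that lysine was replaced with asparagine as a mimic of the acetylated form, and in K467R with arginine as a mimic of the form that stays deacetylated. The marker beside the GFP fusion was HIS3 from S. kluyveri in WT and K467N but HIS3MX6 in K467R, so that in both comparisons with K467R the marker and the substitution cannot be told apart. The labels call the libraries of a strain replicates and name no separate cultures or clones, so p-values measure only the spread between these samples. The study set out to learn if the acetylation matters for transcription at large. The question here is whether the mRNAs of the rest of the pore differ between the strains.

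As background, the pore is built from many copies of a small number of proteins arranged in rings. Y complexes form the outer rings and the inner ring lines the channel, while the membrane ring anchors both in the pore membrane. Proteins rich in phenylalanine-glycine (FG) repeats fill the channel and bind transport receptors, and the cytoplasmic side carries the machinery that releases exported mRNA. Because the scaffold is assembled in fixed proportions, the relative amounts of its mRNAs are of interest beside their levels.

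Library totals on genes ran from 12395725 to 19093010 counts, and the 32 genes together took 0.308 to 0.417% of them. A single member had between 420 and 5036 counts in a library. NUP60 itself (YAR002W) was measured at 84.6 ± 6.50 CPM (SD, n = 6), which are counts scaled to a common library size with TMM factors, in WT, 87.6 ± 3.19 in K467N and 89.1 ± 4.20 in K467R, and it did not pass the test in any comparison. A substitution of 1 residue does not show in counts per gene, so this level does not check the labels. In these bulk libraries a change in the share of cells that express a gene and a change in RNA per cell cannot be told apart. K467R 1 and K467N 2 stood at opposite ends for many of the genes below. Some results are also given without K467R 1, without K467N 2 or without both. The other values include both libraries and may depend on them.

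In WT the 32 mRNAs lay around the middle of the transcriptome. Their median level was 44.0 CPM per kilobase of coding sequence, against 41.3 for the 5472 tested genes with a coding length, and 18 of the 32 lay above that. From SEC13 to NUP188 the mean levels spanned 17.0-fold. When the 32 genes were ranked by mean level in WT, the ranges of the 6 libraries overlapped for 27 of the 31 neighbouring pairs. The 4 steps without overlap were those from SEC13 to DYN2, from SEH1 to GLE2, from GLE2 to NUP49 and from PER33 to NUP53. Shorter genes had higher levels per coding kilobase, with r = -0.73 against log2 coding length across the 32 members and r = -0.34 across the 5472 genes, which describes genes of the same libraries and is not a test. Coding length leaves out untranslated ends, whose part in the levels of the shortest genes was not tested.

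The Y complex had the widest range. SEC13 (YLR208W), which encodes a β-propeller protein shared with the COPII coat of vesicles, had the highest level of all 32 genes, at 301 ± 13.4 CPM per kilobase in WT, with libraries from 285 to 320. SEH1 (YGL100W), whose propeller protein is shared with the SEA complex of the vacuole membrane, followed at 116 ± 3.60. The other 5 genes of the complex lay lower. NUP85 (YJR042W) was at 67.7 ± 3.40, NUP145 (YGL092W) at 40.1 ± 3.01 and NUP84 (YDL116W) at 38.3 ± 3.99. NUP145 encodes a precursor that cleaves itself into an FG protein and a Y complex subunit, so its mRNA serves both places. NUP133 (YKR082W, 25.9 ± 2.09) and NUP120 (YKL057C, 21.9 ± 2.72), which encode long subunits of the stalk and the arms, were lowest. SEC13 was 7.70-fold above the median of the other 6 genes in WT, 7.41-fold in K467N and 8.32-fold in K467R.

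The inner ring genes lay closer together. NUP53 (YMR153W, 52.9 ± 2.93) and ASM4 (YDL088C, 44.6 ± 3.14), paralogs whose proteins touch the membrane and link the ring, had the highest levels. NIC96 (YFR002W), the subunit that anchors the channel proteins, was at 41.4 ± 2.83. The large scaffold genes were lowest, with NUP157 (YER105C) at 27.4 ± 1.72, NUP170 (YBL079W) at 22.7 ± 1.81, NUP192 (YJL039C) at 20.2 ± 1.77 and NUP188 (YML103C) at 17.7 ± 1.44. The span from NUP53 to NUP188 was 2.99-fold in WT, 2.78-fold in K467N and 3.10-fold in K467R.

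Among the membrane genes, 4 sat within a narrow band in WT: POM34 (YLR018C) at 67.6 ± 3.37, NDC1 (YML031W) at 63.0 ± 6.73, POM33 (YLL023C) at 62.7 ± 2.78 and PER33 (YLR064W) at 61.3 ± 1.57. NDC1, which is essential, also serves the spindle pole body, and POM33 and PER33 encode paralogous membrane proteins associated with the pore. SRC1 (YML034W, 31.3 ± 2.33) and HEH2 (YDR458C, 30.4 ± 3.15), which encode inner nuclear membrane proteins that take part in the surveillance of pore assembly, were at about the same level as each other, and POM152 (YMR129W), the pore glycoprotein, was lowest at 24.6 ± 2.85.

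The central channel genes had the narrowest span of the 5 groups in each strain, 1.93-fold in WT, 1.90-fold in K467N and 1.91-fold in K467R. NUP57 (YGR119C, 119 ± 2.09), NUP49 (YGL172W, 83.4 ± 1.19) and NSP1 (YJL041W, 78.5 ± 2.85) encode the 3 partners of the channel complex, and NUP100 (YKL068W, 68.4 ± 4.54) and NUP116 (YMR047C, 61.4 ± 2.65) encode paralogous proteins with GLFG repeats. On the cytoplasmic side, DYN2 (YDR424C), a very short gene for a dynein light chain that also joins the Nup82 complex, was at 152 ± 21.5, and GLE2 (YER107C), a partner of Nup116 in mRNA export, at 102 ± 3.08. GLE1 (YDL207W), which encodes the activator of the helicase Dbp5, was at 43.4 ± 2.25. NUP159 (YIL115C) was at 36.4 ± 2.02 and NUP82 (YJL061W) at 36.3 ± 4.73, and NUP42 (YDR192C), whose FG protein binds Gle1, was lowest at 29.8 ± 1.18. DYN2 has 2 introns in its coding sequence, and NSP1 and SRC1 have 1 each. Over the annotated length with introns, the span of the cytoplasmic group was 3.43-fold in place of 5.11-fold.

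**Figure D1:**
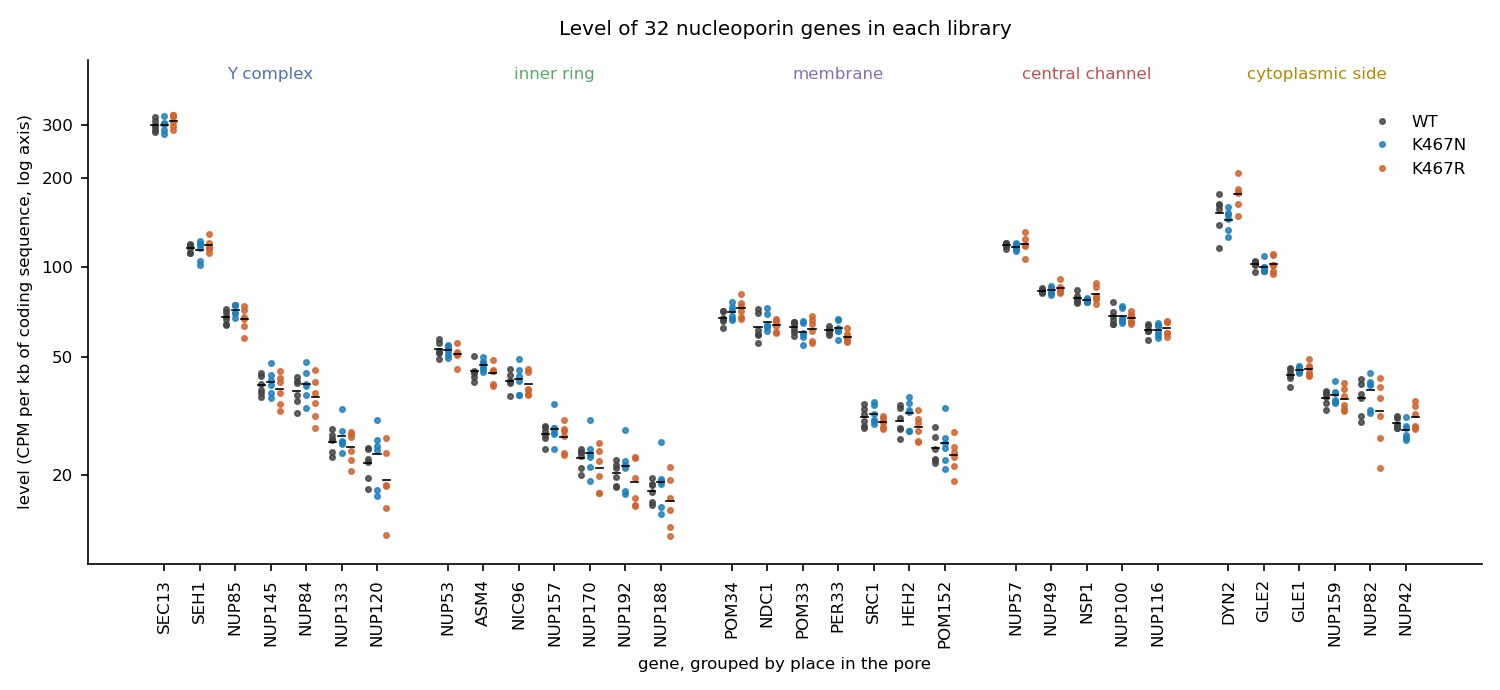
Each point is 1 library and gives CPM per kilobase of coding sequence on a log axis, for WT, K467N and K467R side by side; black bars are means of 6 libraries, and genes are grouped by place in the pore and ordered by level in WT. SEC13 stands at the top at 285 to 320 in WT, the central channel genes form tight columns, and the points of NUP120, NUP188 and NUP82 are drawn out.

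With the acetyl mimic compared with WT, none of the 32 genes passed the test. In K467N against WT, edgeR's quasi-likelihood test with Benjamini-Hochberg adjustment over 5660 genes called 0 members, where 0.0707% of all tested genes were called. DESeq2 and limma-voom also called 0, and 0 members had an unadjusted p under 0.05 with each of the 3 tools, where 1.15% of all genes had one in edgeR. Log2 fold changes of the members ran from -0.08 to 0.10, with a median of 0.04 and 24 of 32 above 0, beside a median of 0.000298 over all tested genes. Without K467N 2 the members' median was 0.000160, with 16 above 0. Libraries of the 2 strains overlapped for every member; they did not for 0.124% of all genes.

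The 6 members with the smallest p-values were NUP85, GLE1, ASM4, NUP42, POM34 and HEH2, each with an adjusted p of 0.999 in edgeR. NUP85 ranged from 143 CPM in WT over a median of 151 to 162, and from 150 over 162 to 167 in K467N. The log2 fold change was 0.09 ± 0.05 (± is the standard error for log2 fold changes), and the ranges overlapped for much of their length. GLE1 ran from 64.1 over 70.3 to 74.1 CPM in WT and from 71.3 over 73.1 to 75.1 in K467N (0.06 ± 0.04). ASM4 ran from 65.3 over 70.4 to 80.0 in WT and from 70.6 over 74.8 to 79.3 in K467N (0.08 ± 0.05). For both genes the K467N libraries lay within or just above the upper part of the WT range.
NUP42 ran from 37.1 over 38.0 to 40.7 in WT and from 34.0 over 36.1 to 40.5 in K467N (-0.08 ± 0.06). POM34 ran from 56.4 over 60.5 to 64.2 in WT and from 59.7 over 63.0 to 68.7 in K467N (0.06 ± 0.05). HEH2 ran from 52.5 over 59.4 to 68.7 in WT and from 55.9 over 65.4 to 73.0 in K467N (0.08 ± 0.08). The ranges of the strains overlapped in each of the 3. Some K467N libraries lay below the WT range for NUP42 and above it for POM34 and HEH2.

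Neither an overlap of libraries nor a p that misses the threshold shows that levels were equal, and the intervals bound how large a change could have gone unseen. In K467N against WT the 95% interval, not adjusted for the number of genes, lay within 0.32 log2 units of no change for 29 of the 32 members, and for 85.6% of all tested genes. The 3 exceptions were NUP120 (-0.23 to 0.42), NUP188 (-0.17 to 0.36) and NUP82 (-0.19 to 0.36). For the central channel the median half-width of the interval was 0.084 log2 units, and all 5 genes lay within the bound.

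In K467R against WT, again 0 members passed, where 0.0707% of all genes were called. DYN2 was the 1 member with an unadjusted p under 0.05, where 5.67% of all genes had one; DESeq2 called 0 members with 2 under 0.05, and limma-voom 0 with 1. The median log2 fold change of the members was -0.02, with 12 of 32 above 0, beside -0.00652 over all tested genes; it ran from -0.0430 without K467R 4 to -0.00311 without WT 3. No member was without overlap between the strains, and 0.283% of all genes were. All 7 inner ring genes had negative values, from -0.11 to -0.02, and 4 of the 5 central channel genes had positive ones, the highest 0.05. None of these passed the test. Over all 32 members the direction was not stable. After removal of the trend with coding length, 19 of the 32 were above 0, and with 2 surrogate variables 24 were. In the inner ring, the sign changed in 0 (NUP53) to 8 (ASM4) of 30 alternative fits. In the central channel it changed in 0 (NSP1 and NUP116) to 4 (NUP57 and NUP100).

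DYN2 ran from 32.4 CPM over a median of 44.5 to 49.4 in WT and from 41.6 over 49.9 to 57.8 in K467R. K467R 1 was the highest library and WT 3 the lowest, and the strains overlapped. The log2 fold change was 0.21 ± 0.09 (edgeR, adjusted p = 0.747), with an interval of 0.03 to 0.40. It was 0.16 without K467R 1 and 0.12 with trends in coding GC content and length removed. POM34 ran from 60.0 over 65.5 to 73.2 CPM in K467R (0.11 ± 0.05, edgeR, adjusted p = 0.747). GLE1 ran from 69.8 over 73.2 to 79.4 (0.07 ± 0.04). PER33 ran from 48.6 over 50.6 to 52.3 in WT and from 46.0 over 47.5 to 51.4 in K467R (-0.07 ± 0.04). All 3 overlapped with WT.
NUP42 (0.07 ± 0.06) and SEC13 (0.05 ± 0.04) completed the 6 members of smallest p. SEC13 ran from 255 over 267 to 286 CPM in WT and from 259 over 281 to 292 in K467R. The intervals lay within 0.32 log2 units for 26 of 32 members and for 79.7% of all genes. Apart from DYN2 the exceptions were NUP120 (-0.52 to 0.14), NUP82 (-0.41 to 0.14), NUP188 (-0.37 to 0.16), NUP192 (-0.33 to 0.14) and NUP170 (-0.32 to 0.11).

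The mutants were also compared directly, in a contrast that shares its libraries with both of those above. In K467N against K467R 0 members passed, where 0.0177% of all genes were called, and DESeq2 and limma-voom also called 0. DYN2, NUP42 and PER33 had an unadjusted p under 0.05, 3 of 32 members, where 11.2% of all genes had one; that count was 2 in DESeq2 and 3 in limma-voom. In edgeR the count was 1 without K467R 1, 5 without K467N 6, 8 without K467N 5 and 9 without K467R 3 or without K467R 4, with 0 members called each time. The count over all tested genes moved with it. In the same order it was 273 of 5672, 866 of 5670, 1215 of 5673, 1110 of 5667 and 1202 of 5669. DYN2 ran from 35.2 CPM over 41.1 to 44.5 in K467N and was at -0.29 ± 0.09 (edgeR, adjusted p = 0.408), with an interval of -0.48 to -0.11. The value for DYN2 was -0.24 without K467R 1 and -0.14 with trends in coding GC content and length removed. NUP42 ran from 36.8 over 39.5 to 45.7 in K467R and was at -0.15 ± 0.06 (edgeR, adjusted p = 0.408). PER33 ran from 46.8 over 50.7 to 54.9 in K467N and was at 0.10 ± 0.04 (edgeR, adjusted p = 0.408). Each of the 3 overlapped between the strains, as did all members, where 0.283% of all genes did not.

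Log2 fold changes of HEH2 (0.15 ± 0.08), NUP85 (0.10 ± 0.05) and NUP120 (0.29 ± 0.16) followed, each with an adjusted p of 0.408 in edgeR. All 7 inner ring genes were above 0 here, as were 5 of 7 in the Y complex, and 1 of 5 in the central channel. These signs were not all stable over 30 alternative fits. The sign changed in 0 (ASM4) to 5 (NIC96) of them in the inner ring. For the Y complex that was 0 (NUP85) to 3 (NUP133 and SEC13), and for the central channel 0 (NSP1) to 5 (NUP49). The median over the 32 was 0.05 with 20 above 0, beside 0.00709 over all genes. Without K467R 1 and K467N 2 that median was 0.00312, and with 2 surrogate variables it was -0.0111. The intervals of 24 of 32 members lay within 0.32 log2 units, where 73.8% of all genes did. Besides DYN2, the exceptions were NUP120 (-0.04 to 0.62), NUP82 (-0.05 to 0.50), NUP188 (-0.06 to 0.47), NUP192 (-0.06 to 0.41), NUP170 (-0.05 to 0.38), NUP84 (-0.06 to 0.35) and POM152 (-0.08 to 0.34).

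**Figure D2:**
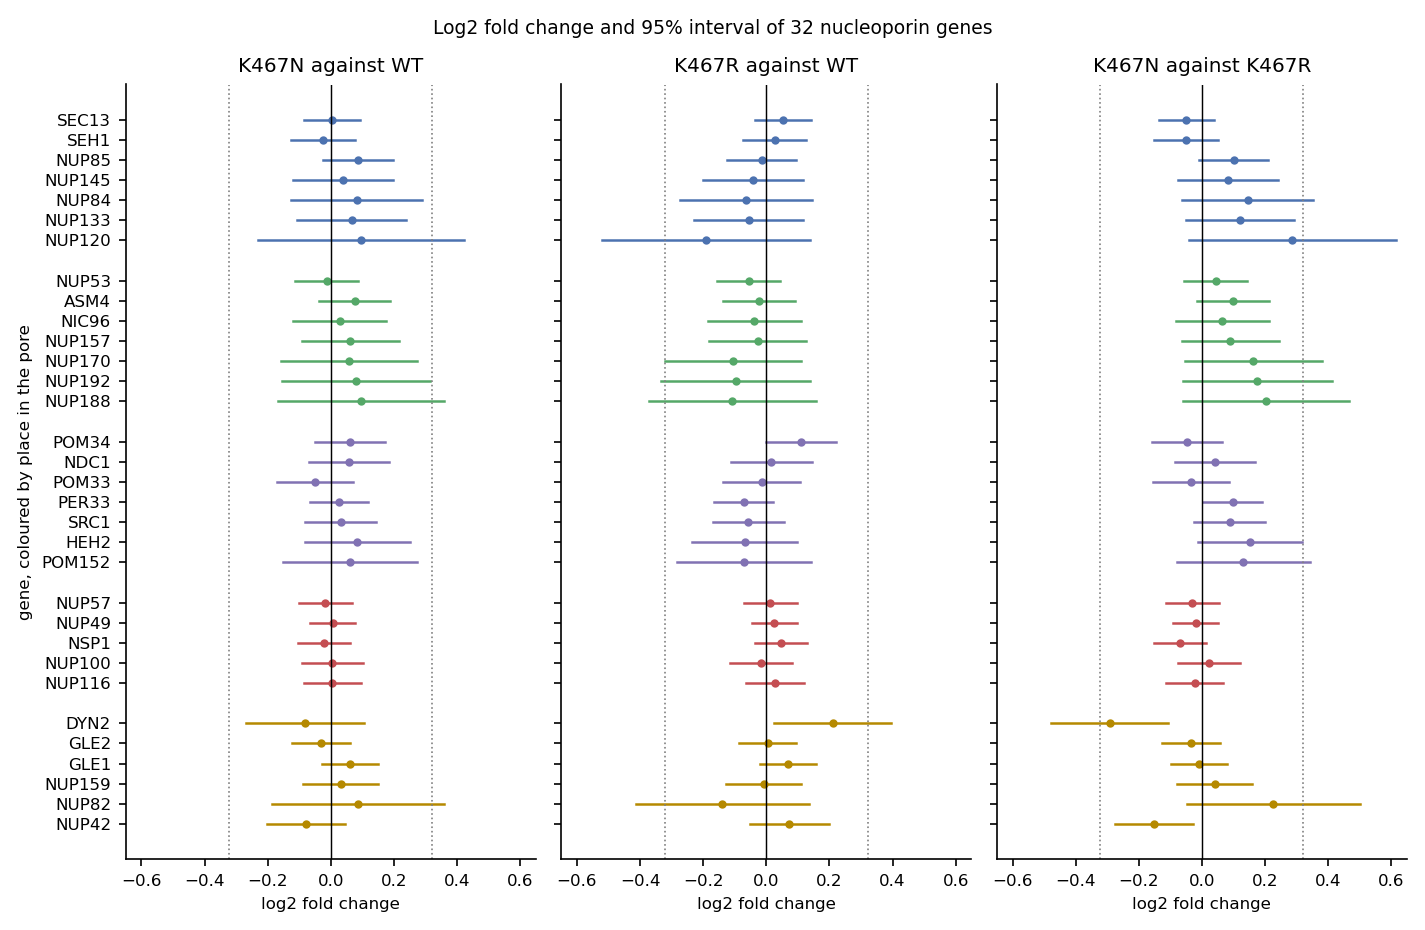
Points are log2 fold changes from edgeR in the 3 comparisons and lines are 95% intervals, coloured by place in the pore; dotted lines mark 0.32 in either direction. The lines of the 5 central channel genes are short and centred near 0, those of NUP120, NUP82 and NUP188 are long and cross a dotted line, and DYN2 is the member farthest below 0 in the comparison of the mutants, at -0.29.

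The other genes of the pathway showed the same absence of calls. Of the 5 nuclear basket genes (NUP60, NUP1, NUP2, MLP1 and MLP2) 0 passed in any comparison, and all 5 intervals lay within 0.32 log2 units in each of the 3. Of 8 genes for pore assembly and surveillance 0 passed; SNF7, a subunit of the ESCRT-III membrane machinery, had the smallest p in K467R against WT, at 0.16 ± 0.07 (edgeR, adjusted p = 0.747). Of 4 mRNA export genes, 5 COPII coat genes, 6 SEA complex genes and 6 dynein and dynactin genes 0 passed in any comparison. Against WT the COPII genes, partners of Sec13, had medians of -0.01 in K467N and 0.04 in K467R. The dynein and dynactin genes, partners of Dyn2, had medians of 0.04 and -0.01, and 2 of the 6 lay above 0 in K467R. Of 14 karyopherin genes, the transport receptors that cross the channel, 0 passed. Their medians were 0.04 in K467N and -0.04 in K467R, and 13 and 0 of the 14 lay above 0. Over all 5660 tested genes 2841 and 2654 did. The 14 genes share their libraries, so these counts are descriptions with no test. Over all of these lists, the smallest unadjusted p against WT belonged to SNF7 in K467R and to NPR2, a SEA complex gene, in K467N (0.12 ± 0.06, edgeR, adjusted p = 0.999).

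Proportions between related genes were compared within each library, where no scaling between libraries is needed. For 8 fixed pairs and 3 comparisons, 24 tests in all, the exact two-sided permutation test over 6 and 6 libraries gave 0 pairs past an adjusted p of 0.05, and the smallest adjusted p was 0.312. NUP188 and NUP192, the large inner ring pair, had a ratio per coding kilobase of 0.875 in WT with libraries from 0.859 to 0.889, 0.881 in K467N and 0.863 in K467R. NUP49 and NUP57, both partners of Nsp1, had a ratio of 0.703 in WT (0.686 to 0.721), 0.715 in K467N and 0.710 in K467R. These were the steadiest of the 8 pairs in WT, with SDs of 0.020 and 0.024 on the log2 scale. Their SDs were larger in the mutants, at 0.052 and 0.051 in K467N and 0.090 and 0.073 in K467R. NUP100 and NUP116 had ratios of 1.11, 1.11 and 1.08, and SEC13 and SEH1 of 2.58, 2.64 and 2.63 in WT, K467N and K467R.

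The pairs with the smallest p were NUP53 with ASM4 and POM33 with PER33, both in K467N against WT. NUP53 to ASM4 was at 1.19 in WT (1.13 to 1.27) and 1.12 in K467N (1.07 to 1.15). The mean log2 ratio was 0.088 lower in K467N, with overlapping libraries (exact permutation test, p = 0.0152, adjusted p = 0.312). POM33 to PER33 was at 1.02 in WT (0.995 to 1.06) and 0.971 in K467N (0.880 to 1.02), again with overlap (exact permutation test, p = 0.0260, adjusted p = 0.312). The coding GC content of POM33 is 43.5% and that of PER33 36.4%. A ratio within a library does not cancel a trend of that library with GC content, and its part here was not tested. NUP157 to NUP170 was at 1.21 in WT, 1.22 in K467N and 1.28 in K467R (K467R against WT, exact permutation test, p = 0.0736, adjusted p = 0.589). SRC1 to HEH2 had means near 1 in all strains, at 1.03, 0.996 and 1.04. Single libraries ran from 0.927 to 1.15 in WT, from 0.920 to 1.09 in K467N and from 0.912 to 1.21 in K467R.

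**Figure D3:**
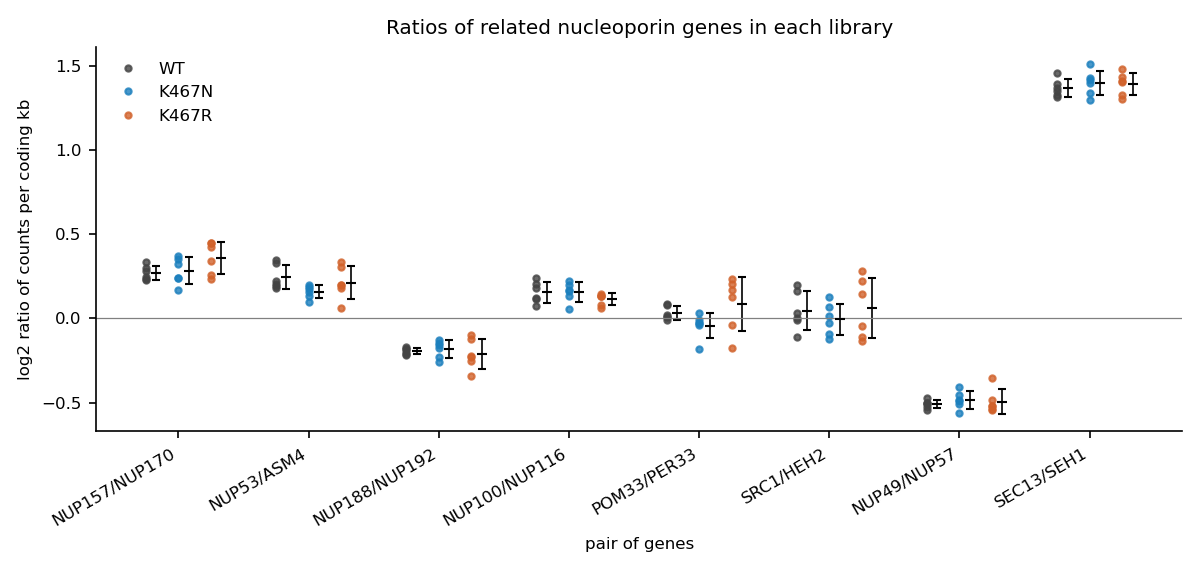
Points are log2 ratios of counts per coding kilobase of 8 gene pairs in each library, with the mean and SD of 6 libraries of a strain in black. The 3 strains overlap in each of the 8 pairs, and the 6 WT points of NUP188/NUP192 and NUP49/NUP57 are the most tightly packed.

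What differed among the members was how much they varied between libraries of the same strain. The SD of log2 CPM within strains had a median of 0.0997 over the 32 members and 0.121 over all tested genes, and 13 members lay above the latter. NUP120 had the largest, 0.318, which placed it above 94.6% of tested genes, followed by NUP82 (0.266), NUP188 (0.247), NUP192 (0.221) and NUP170 (0.202). Counting error alone gives 0.048 for NUP120. NUP49 had the smallest, 0.042 against 0.035 from counting, and 0.972% of tested genes had a smaller one. By group, the median SD was 0.145 in the Y complex, 0.139 in the inner ring, 0.0995 among membrane genes, 0.101 on the cytoplasmic side and 0.0619 in the central channel.

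NUP120 ran from 55.9 CPM over 69.8 to 77.0 in WT, from 52.8 over 76.6 to 95.3 in K467N and from 39.0 over 57.3 to 83.1 in K467R. NUP82 ran from 64.6 over 78.8 to 90.3 in WT, from 69.1 over 86.3 to 94.5 in K467N and from 45.3 over 72.7 to 91.0 in K467R. NUP188 ran from 78.6 over 89.5 to 96.7 in WT, from 73.5 over 93.5 to 128 in K467N and from 62.0 over 79.6 to 106 in K467R. For each of the 3 the lowest library was K467R 1 and the highest was K467N 2. NUP49 by contrast ran from 116 over 118 to 121 CPM in WT, from 115 over 119 to 122 in K467N and from 116 over 119 to 130 in K467R.

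The variable genes moved in the same libraries. Relative to the mean of all 18 libraries, the median of the Y complex ran from -0.29 in K467R 1 to 0.26 in K467N 2, and that of the inner ring from -0.24 in K467R 5 to 0.33 in K467N 2. Membrane genes ran from -0.09 to 0.17 and cytoplasmic genes from -0.07 to 0.13. The central channel stayed between -0.08 in K467R 4 and 0.12 in K467R 1, the library in which the Y complex was lowest. Over all tested genes the median stayed between -0.0117 and 0.0132.

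**Figure D4:**
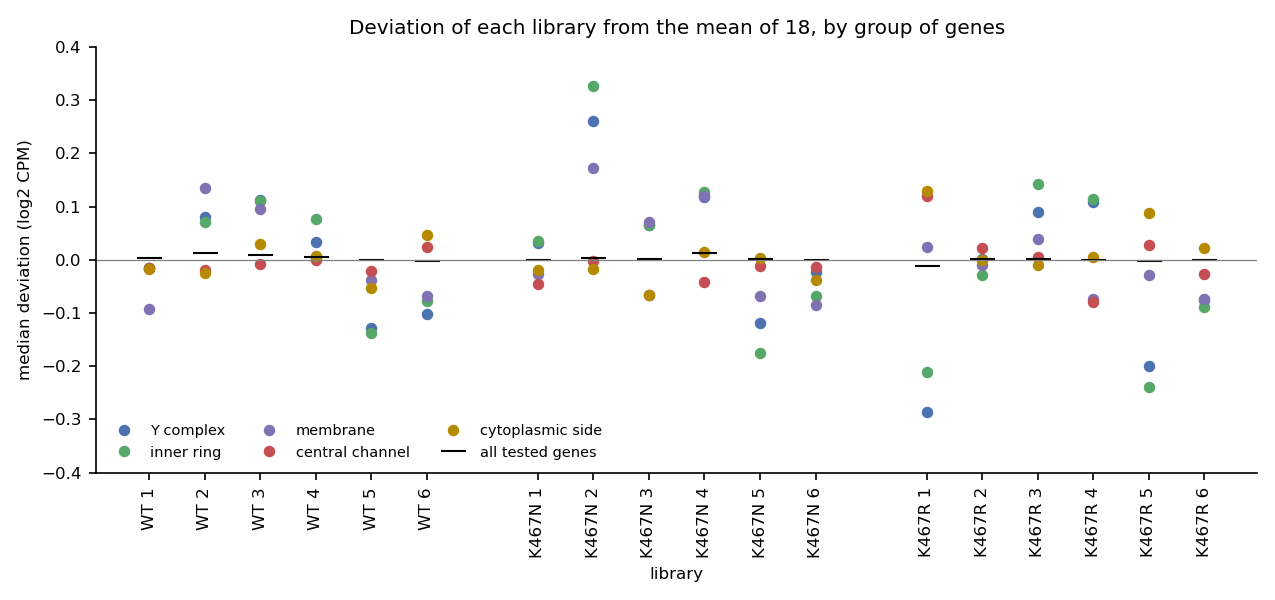
For each library, points give the median deviation in log2 CPM from the mean of 18 libraries for each of the 5 groups of genes, and black bars give the median of all tested genes. The Y complex and inner ring are at -0.29 and -0.21 in K467R 1 and at 0.26 and 0.33 in K467N 2, while the central channel stays between -0.08 and 0.12.

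Among the members, base composition and length moved with this spread. The SD within strains had r = -0.72 (rho = -0.68) with the GC content of the coding sequence across the 32 members, and r = 0.41 (rho = 0.53) with log2 coding length; GC content and length were themselves related (r = -0.56), and the members share their libraries, so these are descriptions with no test. Across the 5472 tested genes with a coding sequence, r of the SD with GC content was -0.03. With log2 coding length it was -0.24, opposite in sign to the members. NUP188 (33.9% GC) and NUP120 (34.1%) were the members lowest in GC. The central channel genes lay between 40.7% (NUP100) and 43.1% (NUP49). PER33 went against the pattern, with 36.4% GC and an SD of 0.064, as did DYN2, with 41.2% and an SD of 0.171.

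Across those 5472 genes, the deviation of a library was itself related to coding GC content, from r = -0.46 in K467N 2 to r = 0.67 in K467R 1, and to log2 coding length, from r = -0.43 in WT 1 to r = 0.58 in K467N 2. In 17 of the 18 libraries the members had the same sign of r with GC content as all genes. When smooth trends in GC content and length over all genes were taken out of each library, the median SD of the members was 0.0577 in place of 0.0997, and that of all genes 0.0831 in place of 0.121. The SD of NUP120 was then 0.123, of NUP188 0.0479 and of DYN2 0.0729, while that of NUP49 was 0.0470. Removing these trends lowers the relation with GC content by its construction, and r across the members was then -0.32. The trends were fitted in each library without a term for strain, so a strain difference that follows GC content or length is removed too. The intervals of a fit without these trends do not bound such a difference. In that fit, 0 members passed in any comparison and the intervals of all 32 lay within 0.32 log2 units in each of the 3. Of all 5660 tested genes, 5017 did in K467N against WT, 4907 in K467R against WT and 4889 between the mutants. In the same order, 1, 2 and 4 members had an unadjusted p under 0.05 in edgeR, beside 151, 574 and 627 of all genes.

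**Figure D5:**
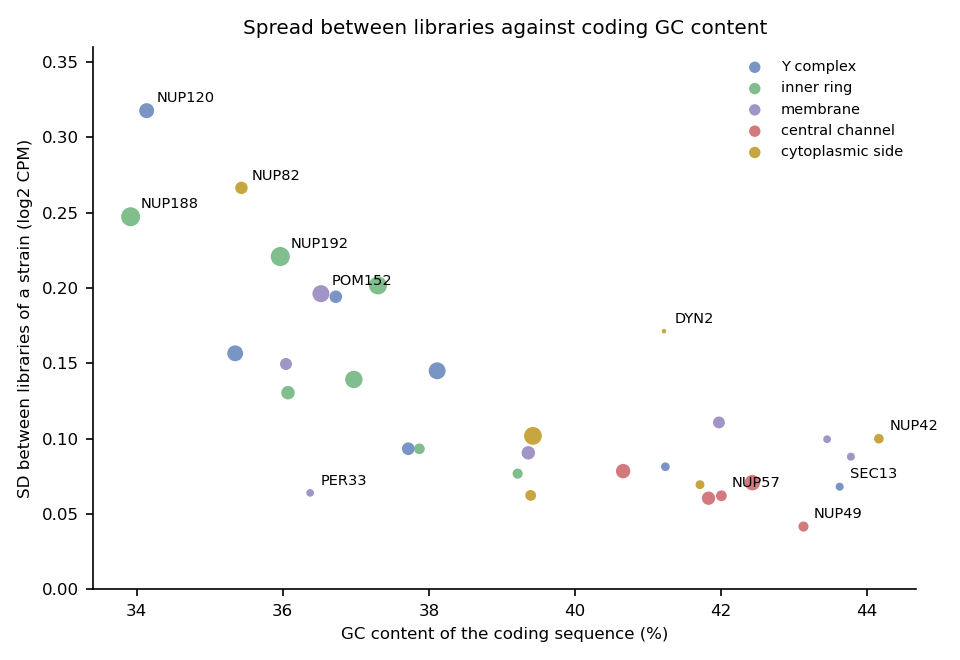
Each point is 1 member, placed by the GC content of its coding sequence and by the SD of log2 CPM between libraries of a strain, coloured by place in the pore and with an area that grows with coding length. NUP120 (34.1% GC, SD 0.318) stands at the upper left and NUP49 (43.1% GC, SD 0.042) at the lower right. DYN2 lies above, and PER33 below, the other members of similar GC content.

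Summed over the 32 genes, nucleoporin mRNA amounted to 3534 ± 121 CPM in WT, 3603 ± 180 in K467N and 3503 ± 120 in K467R (SD, n = 6). WT libraries ran from 3370 over a median of 3525 to 3698, K467N libraries from 3409 over 3584 to 3920 and K467R libraries from 3380 over 3490 to 3679. The strains overlapped, and the highest value was again that of K467N 2.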

How the data were processed

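The deposited files hold raw counts, 1 whole number per gene and library, not normalised by the authors; per the submitters' processing notes the tools were HTSeq 0.6.1p1, STAR 2.5.3a and bcl2fastq 2.20.0.422. The genome build, annotation release and strandedness of counting were not given in the sources used here. Coordinates and sequences are therefore not printed. The library kit was strand-specific, per the labels' protocols. Reads on genes made up 75.3 to 76.2% of reads sorted; reads with several alignments (18.3 to 19.6%), outside genes (4.70 to 5.64%) and ambiguous (0.305 to 0.349%) were left out.

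Symbols, coding lengths, GC content and introns came from the RefSeq R64 assembly, to which 5956 of 7036 features and all 32 members matched by identifier. No member overlapped another R64 gene or had a near-identical copy (BLAST 2.17.0, 95% identity over 50% of the length). Levels are CPM with TMM factors, divided by coding length.

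The test was edgeR 4.0.16 under R 4.3.3. There filterByExpr left 5660 genes, and all 18 libraries entered 1 robust quasi-likelihood fit with strain as the only term, two-sided, with Benjamini-Hochberg adjustment over all genes at 0.05. Standard errors are the coefficient over the root of F, and intervals use the t distribution. Log2 CPM used a prior count of 2. Ratios of a pair used counts + 0.5 and the exact permutation test over libraries, adjusted over 24 tests. Figures used Python 3.11.15 and matplotlib 3.10.9. Steps were tested on simulated data. The reads carry no molecular identifiers, so counting error is a lower limit.

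The members, lists, pairs and named genes were chosen with earlier results of these data known. The rule names the 6 members of smallest p in each comparison, the highest and lowest of each group and the pairs. Alternatives were other scalings and filters, DESeq2 1.42.0, limma-voom (limma 3.58.1), 2 surrogate variables (sva 3.50.0), fits restricted to the 12 libraries of a comparison, removal of a trend in coding length, a threshold of 0.01 and leaving out libraries. Removal of a trend in GC content was chosen after seeing the data.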

Additional observations from a re-analysis of the deposited data

Results flagged for a closer look

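Of 126 sets of 6 libraries checked (32 members and NUP60 in CPM, 8 ratios and the summed level, in 3 strains), 4 had 1 library far from the others by Dixon's criterion, where chance gives about 1 in 20 such sets. GLE2 was at 106 CPM in WT 2, below the other 5 WT libraries at 112 to 115. GLE2 was also at 119.5 CPM in K467N 5, above the other 5 at 106 to 110. The log2 count ratio of POM33 to PER33 was -0.153 in K467N 4, below the other 5 at -0.00514 to 0.0620. The log2 count ratio of NUP49 to NUP57 was -0.549 in K467R 4, above the other 5 at -0.741 to -0.682.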

How the results depend on the processing

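No member was called in any of the 3 comparisons under 31 alternatives each, and 0 pairs of genes passed under 20. The smallest adjusted p of a member was 0.931 in K467N against WT, 0.369 in K467R against WT and 0.218 between the mutants. Calls over all genes moved from 4 to 2 for K467N against WT with a filter of 10 CPM in 6 libraries, and from 4 to 8 for K467R against WT with 2 surrogate variables. The median of the members between the mutants was -0.0111 with 2 surrogate variables in place of 0.0544, and the span of cytoplasmic levels was 3.43 over the annotated gene length; the first cause was not tested, and the second follows from the introns of DYN2. Leaving out 1 library at a time, the members' median ran from 0.000160 to 0.0648, from -0.0430 to -0.00311 and from 0.0213 to 0.0830 in the 3 comparisons. Intervals within 0.32 log2 units numbered 25 to 30, 25 to 30 and 22 to 28 of the 32 members. Over all genes, of which 5667 to 5674 were tested, they numbered 4624 to 4909, 4185 to 4783 and 3828 to 4549. No paired analysis was possible because the labels give the libraries no replicate numbers shared between strains, and the numbers used here follow accession order and are only names. Libraries of the same number had the same sign of r between deviation and coding GC content in all 3 strains for numbers 3, 4, 5 and 6, and not for 1 and 2; whether they share a culture, day or batch was not tested. Counting error was largest for NUP42, with an SD of 0.061 on the log2 scale, and DYN2 followed at 0.058.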
